A study of Mus musculus with 6 samples.

Results

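The genes described here carry a cell through mitosis: they encode the cyclins and kinases that start it, the kinetochore and its checkpoint, the machinery that compacts and separates chromosomes, and the proteins that divide the cell. They were taken as a list of 45 gene symbols and matched to probe sets annotated with 1 symbol. Of the 45, 44 were matched, out of 18193 genes on the array, and Ccnb1 was not analysed here. Expression was measured on 6 Affymetrix arrays of NMuMG, a line of mouse mammary epithelial cells, with 2 arrays for each of 3 groups. Control cells received vehicle, the TGF-β group received 4 ng/ml of the cytokine for 11 days, and the withdrawal group received the same treatment and then grew for another 13 days without it. All groups were kept in serum and insulin, and all values come from this 1 cell line.

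The labels do not say that arrays of 1 group are separate cultures, so each p-value reflects just the spread of these samples, and that spread may be technical. The withdrawal cells also grew for longer than the TGF-β cells, and the effects of time in culture and of withdrawal cannot be told apart. The day on which control cells were collected is not given in the labels, so time in culture may also differ in both comparisons with control, and its part was not tested. The descriptions in the labels give the treated groups state names opposite to their titles, and the groups here follow the titles. On the 2 arrays titled TGF-β, the smooth muscle actin gene Acta2 was at 13.63 and 13.61, against 8.81 and 8.80 in control and 8.08 and 8.20 after withdrawal. The E-cadherin gene Cdh1 was at 8.37 and 8.25 on the TGF-β arrays, against 11.99 and 11.89 in control and 11.80 and 11.79 after withdrawal. Tagln, another contractile gene, was at 12.69 and 12.61 under TGF-β, against 6.89 and 6.92 in control and 6.97 and 6.82 after withdrawal. Of 7 measured contractile and mesenchymal genes, 7 were called higher under TGF-β, and on withdrawal 5 were called lower and 2 higher again. Those 2 were the fibronectin gene Fn1, with group means of 12.03, 13.69 and 14.14, and the N-cadherin gene Cdh2, with means of 11.75, 12.50 and 12.91. Of 7 epithelial genes, 5 were called lower under TGF-β, and 3 of the 7 were still lower than control after withdrawal. The keratin genes Krt8 and Krt18 were above 13 on all 6 arrays but were called lower than control under TGF-β (-0.73 and -0.53) and after withdrawal (-0.94 and -0.53). The keratin gene Krt19 and the occludin gene Ocln were at -3.82 and -3.29 under TGF-β and at -0.89 and -0.36 after withdrawal, where Ocln did not pass, and Epcam and Cldn3 did not pass against control in either group. Of 6 measured leukocyte markers, 2 (Cd14 and Cd68) were higher after withdrawal than in control, and the defining gene Ptprc lay between 3.79 and 4.05 on all 6 arrays. Cd14 was at 11.22 and 11.24 in control, 9.66 and 9.64 under TGF-β and 11.48 and 11.54 after withdrawal. It was called lower under TGF-β than in control (-1.58) and higher on withdrawal (1.86), and Cd68 rose on withdrawal by 1.05. Ptprc, Itgam, Csf1r and Cd3e passed in no comparison, so the sum below moved mainly with Cd14 and Cd68. The sum of log2 values over the leukocyte markers was 37.4 to 37.7 in control, 36.1 to 36.3 under TGF-β and 38.6 to 38.9 after withdrawal. Its part in the results below was not tested.

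As background, a cell enters mitosis when cyclin A and cyclin B bind and switch on the kinase Cdk1. Kinetochores then hold each chromosome to the spindle, and the spindle checkpoint blocks the anaphase-promoting complex until all chromosomes are attached. Most of these transcripts are made late in the cell cycle and are low in resting cells, so their level in a culture follows how many of its cells are cycling. TGF-β is known to slow the division of epithelial cells. In RNA from whole cultures, fewer dividing cells and less of each transcript per dividing cell cannot be told apart.

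Many late cell cycle promoters carry a CHR element, which binds the MuvB core of the DREAM and B-Myb complexes, together with CCAAT boxes, which bind NF-Y. The letters TTTGAA and TTCGAA (CHR) and CCAAT were searched on both strands of RefSeq promoter windows of build GRCm38.p6, which run from 250 bases before to 50 bases after the start site. Of the 44 members, 36 had a window. TTTGAA or TTCGAA stood in 26 of these 36 (72.2%), against 17.5% of 14452 measured genes with a window. Within 50 bases of the start, a range set after the positions were seen, they stood in 24 of 36 (66.7%), against 4.62%. CCAAT stood in 27 of 36 (75.0%), against 42.0%, and both kinds of letters stood in 1 window for 24 of 36, against 7.05%. The windows of Nuf2, Plk4, Melk, Mad2l1, Ncaph, Pttg1 and Birc5 held neither. A match describes letters only and is not evidence of binding.

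Stretches of 5 promoters are shown because their genes differed under TGF-β. Ccnb2 and Cenpf were called lower there (-1.22 and -0.83), while Cdc20, Prc1 and Nuf2 did not pass the test. Ect2 and Mad2l1 fell more than Cenpf (-1.08 and -0.88) and are not shown. Each runs 5′ to 3′ on the gene's strand, from 120 bases before the start to 30 bases from it. Capitals mark TTTGAA and CCAAT, and no marked match overlaps another.
Ccnb2 (chr9:70421525-70421674, minus strand): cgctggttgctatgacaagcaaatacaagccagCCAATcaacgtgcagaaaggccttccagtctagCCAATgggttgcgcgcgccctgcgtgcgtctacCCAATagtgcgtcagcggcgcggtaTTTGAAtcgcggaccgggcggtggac
Cenpf (chr1:189688057-189688206, minus strand): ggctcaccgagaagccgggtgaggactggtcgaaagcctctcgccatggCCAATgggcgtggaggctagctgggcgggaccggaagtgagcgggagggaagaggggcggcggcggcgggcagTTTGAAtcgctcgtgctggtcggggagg
Cdc20 (chr4:118437314-118437463, minus strand): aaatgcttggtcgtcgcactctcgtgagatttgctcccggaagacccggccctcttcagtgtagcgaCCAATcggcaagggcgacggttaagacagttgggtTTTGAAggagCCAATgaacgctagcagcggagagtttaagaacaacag
Prc1 (chr7:80294331-80294480, plus strand): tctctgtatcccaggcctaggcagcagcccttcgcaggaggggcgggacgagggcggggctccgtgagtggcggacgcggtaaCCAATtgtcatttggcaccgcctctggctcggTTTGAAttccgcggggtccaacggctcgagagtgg
Nuf2 (chr1:169531435-169531584, minus strand): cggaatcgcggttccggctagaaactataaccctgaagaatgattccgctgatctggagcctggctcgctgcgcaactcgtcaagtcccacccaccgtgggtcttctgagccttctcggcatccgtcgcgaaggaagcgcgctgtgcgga
In the stretches of Ccnb2, Cenpf, Cdc20 and Prc1, 1 TTTGAA lies close to the start, with 3, 1, 2 and 1 CCAAT. The genes with large and with small changes under TGF-β therefore both include promoters with these letters. Both also include windows without them, such as those of Mad2l1 (-0.88 under TGF-β) and Nuf2.

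Values are log2 expression as deposited, and each difference is given with its standard error (SE) from limma, fitted over all 18193 genes. A gene was called when its Benjamini-Hochberg adjusted p was under 0.05. The mitosis genes were lower under TGF-β than in control and lower again after withdrawal. Under TGF-β, 36 of 44 members were called lower and 0 higher (17.5% of all genes were called lower and 15.0% higher); at an unadjusted p under 0.05 the counts were 38 and 0. From TGF-β to withdrawal, 44 of 44 were called lower and 0 higher (22.1% and 21.8% of all genes), and at an unadjusted p under 0.05 again 44 and 0. From control to withdrawal the counts were also 44 and 0 (23.6% and 21.7% of all genes), unadjusted included. The median difference over the members was -0.37, -1.26 and -1.75 in the 3 comparisons, beside -0.01, -0.03 and -0.04 over all genes. These comparisons share arrays in pairs, so they are not independent of each other.

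**Figure D1:**
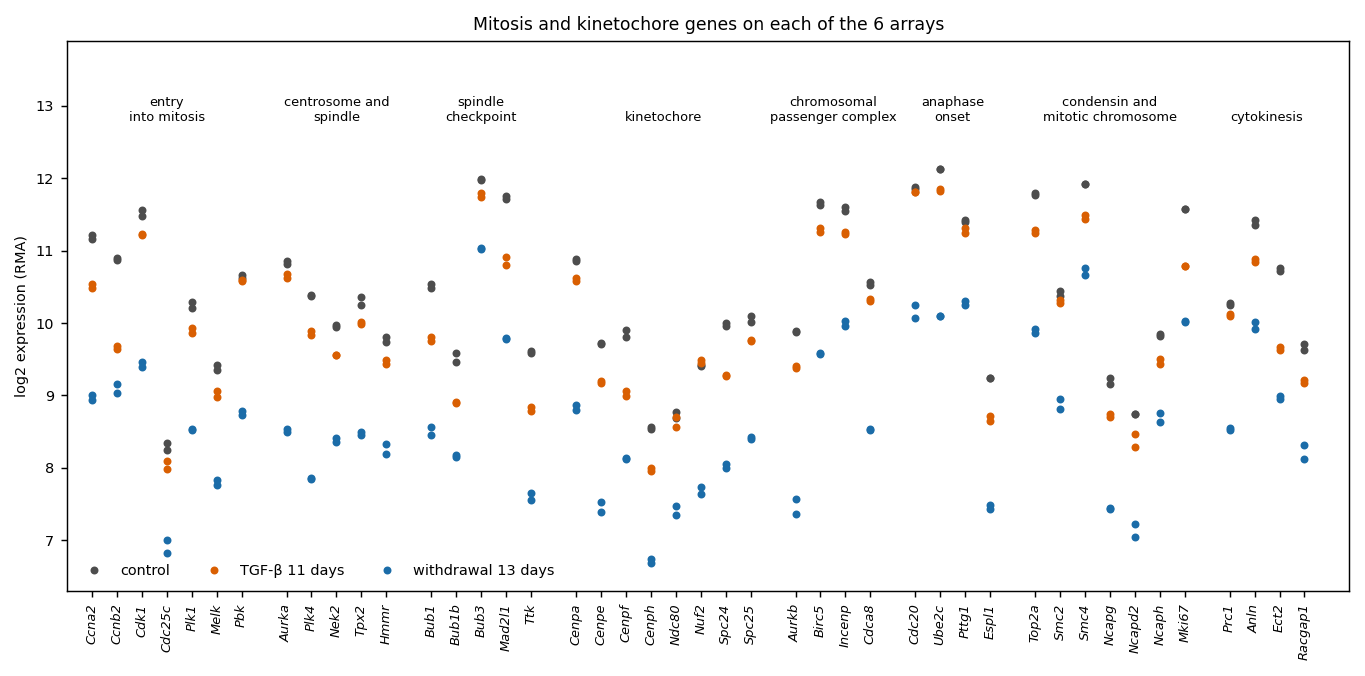
Log2 expression (vertical axis) of the 44 measured genes (horizontal axis, grouped by step of mitosis) on each array, with 2 points for each of control, TGF-β for 11 days and withdrawal for 13 days. The withdrawal arrays lie below the control arrays for 44 of 44 genes, and the TGF-β arrays lie between them for 42 of 44.

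Among the genes for entry into mitosis, 7 of 8 were measured, 5 were called lower under TGF-β and 7 after withdrawal. Ccna2, the cyclin A2 gene, was at 11.21 and 11.16 in control, 10.49 and 10.54 under TGF-β and 8.94 and 9.00 after withdrawal. The B-type cyclin gene Ccnb2 was at 10.90 and 10.86, then 9.68 and 9.64, then 9.03 and 9.15. In both genes the 3 groups did not overlap, but Ccnb2 made most of its descent under TGF-β and Ccna2 most of it afterwards. Against control, Ccnb2 fell under TGF-β by 1.22 ± 0.0606 (SE; limma adjusted p = 4.38e-05) and Ccna2 by 0.67 ± 0.0557 (limma adjusted p = 0.000319). After withdrawal the differences from control were -1.79 and -2.22, or 3.46-fold and 4.65-fold lower.

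Cdk1, the kinase these cyclins activate, was at 11.48 and 11.56 in control, 11.23 and 11.22 under TGF-β and 9.46 and 9.40 after withdrawal. Its fall under TGF-β was small (-0.30 ± 0.0562, limma adjusted p = 0.009; 0.0606 without the second control array), and that after withdrawal was 4.28-fold against control. Plk1, a kinase that acts from centrosome to cytokinesis, and Melk, a kinase gene of dividing cells, were at -0.36 and -0.37 under TGF-β and at -1.72 and -1.59 after withdrawal. Both passed in each comparison. The kinase gene Pbk behaved otherwise under TGF-β, at 10.59 and 10.58 beside 10.63 and 10.66 in control (-0.06 ± 0.0512, limma adjusted p = 0.476), and then dropped to 8.72 and 8.78. Cdc25c, the phosphatase that activates Cdk1, was at -0.25 ± 0.0848 and did not pass (limma adjusted p = 0.0699), although its 2 control arrays (8.35 and 8.24) lay above its TGF-β arrays (7.98 and 8.10). After withdrawal it was at 6.82 and 7.00. When all probe sets were fitted, the other probe set of Cdc25c was called lower under TGF-β (-0.43, limma adjusted p = 0.0361). Its mean over the arrays was 7.44, beside 7.75 for the 1 used.

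The centrosome and spindle genes included the member furthest from control after withdrawal. Plk4, the kinase that starts centriole duplication, was at 10.38 on both control arrays, 9.89 and 9.84 under TGF-β and 7.84 and 7.86 after withdrawal. That was 5.78-fold below control, the largest difference among the members (-2.53 ± 0.0501, limma adjusted p = 2.76e-06). Aurka, the kinase of the spindle poles, was at 10.86 and 10.82, then 10.68 and 10.62, then 8.54 and 8.49. Nearly all of its 5.01-fold difference from control arose after TGF-β was taken away. Its change under TGF-β was -0.19 ± 0.0543 (limma adjusted p = 0.0422), and leaving out any 1 of the 6 arrays ended that call, with the adjusted p over all settings between 0.00161 and 0.209. Tpx2, which activates Aurka on the spindle, the centrosome kinase gene Nek2 and the spindle protein gene Hmmr were at -0.30, -0.40 and -0.31 under TGF-β and at -1.83, -1.57 and -1.51 after withdrawal. All 5 genes of this step were called lower in every comparison, with calls for Tpx2 and Hmmr under TGF-β that were lost without the first control array or without the first TGF-β array. A dimmer probe set of Tpx2 was called in the opposite direction under TGF-β (0.27, limma adjusted p = 0.0201).

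The spindle checkpoint genes encode the proteins that hold back anaphase, and they had the lowest median of any step under TGF-β, at -0.73. Mad2l1, which encodes the Mad2 inhibitor of Cdc20, was at 11.72 and 11.75 in control, 10.91 and 10.81 under TGF-β and 9.80 and 9.77 after withdrawal. Ttk, the Mps1 kinase gene, was at 9.58 and 9.61, then 8.85 and 8.79, then 7.56 and 7.66. The groups did not overlap in either gene, and the steps down under TGF-β were -0.88 ± 0.0567 and -0.78 ± 0.0585 (limma adjusted p = 0.000119 and 0.000218). The checkpoint kinase gene Bub1 and the BubR1 gene Bub1b were at -0.73 and -0.62 under TGF-β and at -2.01 and -1.36 after withdrawal. Bub3, whose protein carries Bub1 and BubR1 to kinetochores, moved least of the 44 members between control and withdrawal. It was at 11.97 and 11.99, 11.80 and 11.75, and 11.02 and 11.04, which is 1.93-fold lower after withdrawal. Its difference of -0.21 under TGF-β passed (limma adjusted p = 0.0248) and did not pass without any 1 of the control or TGF-β arrays.

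Of the 8 kinetochore genes, 6 were called lower under TGF-β and 8 after withdrawal. Their differences from control ran from -0.83 to 0.06 under TGF-β and from -2.26 to -1.33 after withdrawal. Cenpf, which encodes a large protein of the outer kinetochore, was at 9.81 and 9.91 in control, 9.06 and 8.99 under TGF-β and 8.13 and 8.12 after withdrawal. Cenpe, the kinetochore motor gene, was at 9.72 and 9.71, then 9.19 and 9.17, then 7.39 and 7.53, or 4.78-fold below control. In both genes the groups did not overlap, and Cenpf had covered 48.1% of its log2 fall under TGF-β and Cenpe 23.6%. The centromeric histone gene Cenpa was at -0.27 under TGF-β and -2.04 after withdrawal, and Cenph, of the inner kinetochore, at -0.57 and -1.84. The call for Cenpa under TGF-β was lost without either control array or without the first TGF-β array (the highest adjusted p over all settings was 0.391).

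Of the 4 subunits of the Ndc80 complex, which binds microtubules, 2 were called lower under TGF-β and 2 did not pass. Spc24 was at 9.95 and 10.00 in control and 9.28 and 9.27 under TGF-β, and Spc25 at 10.02 and 10.10 and then 9.75 and 9.77. Both were called lower, by 0.70 and 0.30, but the call for Spc25 was lost without suffixed probe sets, where its dimmer probe set was read (-0.08, limma adjusted p = 0.401). Ndc80 was at 8.69 and 8.78 and then 8.57 and 8.70, and Nuf2 at 9.40 and 9.43 and then 9.49 and 9.45. Neither passed (-0.10 ± 0.076 and 0.06 ± 0.0572, limma adjusted p = 0.391 and 0.536), Ndc80 was the 1 member whose control and TGF-β arrays overlapped, and Nuf2 turned to -0.23 and -0.10 when arrays were scaled to poly-A or hybridization spikes. After withdrawal all 4 were low, at 7.99 and 8.06 for Spc24, 8.40 and 8.42 for Spc25, 7.34 and 7.47 for Ndc80 and 7.64 and 7.74 for Nuf2. Whether the subunits differ from each other under TGF-β was not tested.

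The 4 genes of the chromosomal passenger complex, which corrects faulty attachments and then guides cytokinesis, were each called lower in every comparison. Aurkb, its kinase, was at 9.88 and 9.89 in control, 9.40 and 9.38 under TGF-β and 7.37 and 7.57 after withdrawal, or 5.34-fold below control. Birc5, which encodes survivin, was at 11.63 and 11.67, then 11.26 and 11.32, then 9.57 and 9.59. The scaffold gene Incenp and the borealin gene Cdca8 were at -0.33 and -0.23 under TGF-β and -1.58 and -2.01 after withdrawal. The other probe sets of Cdca8 were at -0.16 and -0.18 under TGF-β and did not pass (limma adjusted p = 0.240 and 0.279). Its call there was also lost with the mean of probe sets and without suffixed probe sets. The median of this step after withdrawal, -2.04, was the lowest of the 8, and its members had covered 11.4% to 21.1% of their fall under TGF-β. The call for Cdca8 under TGF-β was lost without any 1 of the control or TGF-β arrays.

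Of the 4 genes for the onset of anaphase, 2 were called lower under TGF-β, where their median of -0.21 was the nearest to 0 of the 8 steps. Cdc20, which activates the anaphase-promoting complex, was at 11.87 and 11.85 in control and 11.81 on both TGF-β arrays (-0.05 ± 0.07, limma adjusted p = 0.677), and at 10.25 and 10.07 after withdrawal. Ube2c, the ubiquitin-conjugating enzyme gene of that complex, was at 12.13 on both control arrays, then 11.86 and 11.82, then 10.10 and 10.09. Cdc20 thus stood close to control under TGF-β, while Ube2c was called lower (-0.29, limma adjusted p = 0.00582), and both were lower after withdrawal, by 3.25-fold and 4.09-fold. Espl1, which encodes the cohesin-cutting enzyme separase, was at -0.56 and then -1.78 from control. Pttg1, which encodes its inhibitor securin, was at 11.39 and 11.43 in control, 11.32 and 11.24 under TGF-β and 10.25 and 10.31 after withdrawal. Its TGF-β arrays lay just below control and did not pass (-0.13, limma adjusted p = 0.142), while another probe set of the gene was called lower there (-0.69). With that probe set the median of this step would lie between -0.56 and -0.29. The place of this step nearest to 0 therefore depends on the probe set used for Pttg1.

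Among the genes of mitotic chromosomes, Top2a, the DNA-untangling topoisomerase gene, was at 11.80 and 11.76 in control, 11.25 and 11.29 under TGF-β and 9.86 and 9.91 after withdrawal. Mki67, which encodes the proliferation marker Ki-67, was at 11.57 and 11.58, then 10.79 on both arrays, then 10.03 and 10.02. Mki67 descended by nearly equal amounts in the 2 intervals, -0.78 and -0.77. Smc2, a core subunit gene of condensin, was at 10.44 and 10.38 in control, 10.27 and 10.32 under TGF-β and 8.81 and 8.95 after withdrawal. It did not pass under TGF-β (-0.11 ± 0.0667, limma adjusted p = 0.285), and its partner gene Smc4 did (-0.46 ± 0.0574, limma adjusted p = 0.00179). Against control they were at -1.53 and -1.21 after withdrawal. The condensin I subunit genes Ncapg, Ncapd2 and Ncaph were called lower in each comparison, at -0.48, -0.37 and -0.36 and then -1.76, -1.61 and -1.13 from control. The call for Ncapd2 under TGF-β was lost without either control array or without the first TGF-β array. Top2a was at 0.08 under TGF-β when read from its brightest probe set without an _x, _s or _a suffix. That probe set was dimmer, with a mean over the arrays of 6.87 beside 10.98 for the 1 used.

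Of the cytokinesis genes, Ect2, which activates the contractile ring through RhoA, was at 10.76 and 10.72 in control, 9.67 and 9.63 under TGF-β and 8.96 and 9.00 after withdrawal. Its fall of 1.08 ± 0.0518 under TGF-β (limma adjusted p = 3.82e-05) and that of Ccnb2 were the 2 among 44 that exceeded 1 on the log2 scale. Its partner gene Racgap1 and the ring scaffold gene Anln, for anillin, were at -0.47 and -0.52 under TGF-β and -1.45 and -1.42 after withdrawal. Prc1, which bundles the microtubules of the central spindle, was at 10.24 and 10.28, then 10.10 and 10.12, then 8.55 and 8.52. Its 2 TGF-β arrays lay below its control arrays, but the difference of -0.15 ± 0.0502 did not pass (limma adjusted p = 0.0684).

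**Figure D2:**
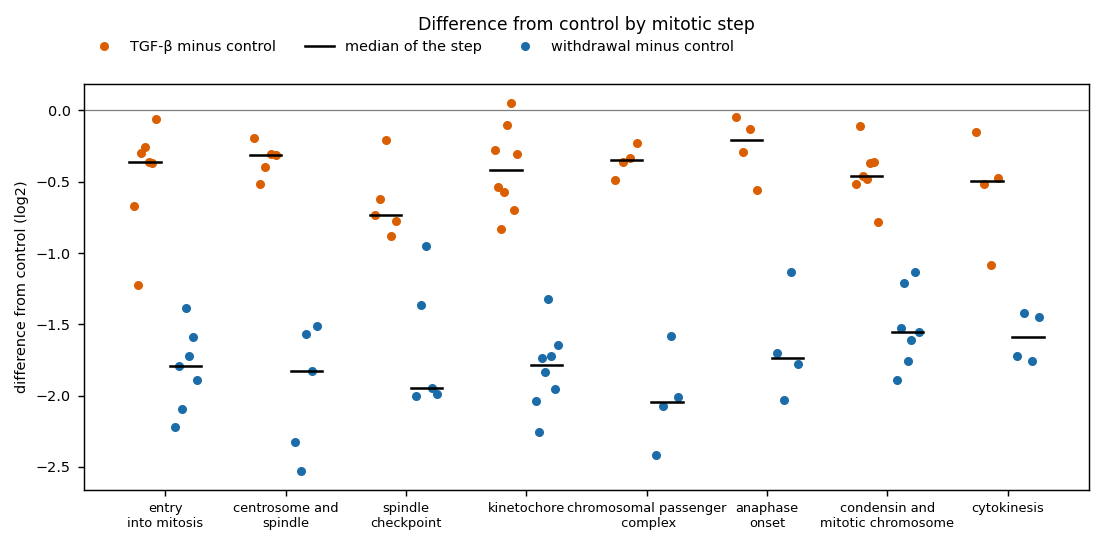
Difference from control on the log2 scale (vertical axis) for each member (points) in 8 steps of mitosis (horizontal axis), under TGF-β and after withdrawal, with black bars for the median of each step. Medians lie between -0.73 (spindle checkpoint) and -0.21 (anaphase onset) under TGF-β and between -2.04 (chromosomal passenger complex) and -1.55 (condensin and mitotic chromosome) after withdrawal.

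The arrays of the groups did not overlap for 43 of 44 members between control and TGF-β (64.9% of all genes), and for 44 of 44 in both other comparisons (69.0% and 70.5%). Being called lower under TGF-β and lower again on withdrawal was common to 36 members, beside 4.19% of all genes. None of the 36 members called lower under TGF-β was called higher on withdrawal, while 1533 genes, or 48.3% of all genes called lower under TGF-β, were. The difference between control and withdrawal exceeded 1 on the log2 scale for 43 members, Bub3 being the other, and exceeded 2 for 11.

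Whether the fall after withdrawal was larger than the fall under TGF-β was tested as the difference of the 2 differences in the same limma fit, a test added after the data were seen. Over all genes, 17.8% were called in the direction of a larger second fall and 18.9% in the other. These shares also take in genes that rose and then fell or fell and then rose, and larger falls alone were not counted. Among the 44 members, the second fall was called larger for 37, including Nuf2, which did not fall under TGF-β. The first was larger for Ccnb2 and Ect2, and 5 did not pass. Those 5 were Smc4, Mad2l1, Bub1b, Cenpf and Mki67, at -0.30 ± 0.0995, -0.19 ± 0.0982, -0.12 ± 0.109, -0.06 ± 0.102 and 0.0090 ± 0.0822 (second minus first). For Ccnb2 and Ect2 the difference was 0.66 ± 0.105 and 0.41 ± 0.0897 (limma adjusted p = 0.00421 and 0.0145). As a description, the share of the log2 difference between control and withdrawal already reached under TGF-β had a median of 22.4% and ran from -3.23% for Nuf2 to 68.3% for Ccnb2. By step, its median was highest for the spindle checkpoint (39.1%) and lowest for anaphase onset (12.9%). These medians hold for the probe sets used, and another probe set of Pttg1 fell more under TGF-β. Both the count and the share depended on scaling. With arrays scaled to the poly-A spikes, 15 members had a called larger second fall. With this and other settings, the percent of all genes called in that direction was not counted. The median share with poly-A scaling was 37.0%, with 50.1% for the checkpoint and 29.8% for anaphase onset. With hybridization spikes the median share was 26.4%. Calls for single genes also depended on the probe set when all probe sets were fitted. A dimmer probe set of Cenpf had a called larger second fall (-0.80, limma adjusted p = 0.00328). For Pttg1 a dimmer probe set did not pass (-0.37, limma adjusted p = 0.0571).

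**Figure D3:**
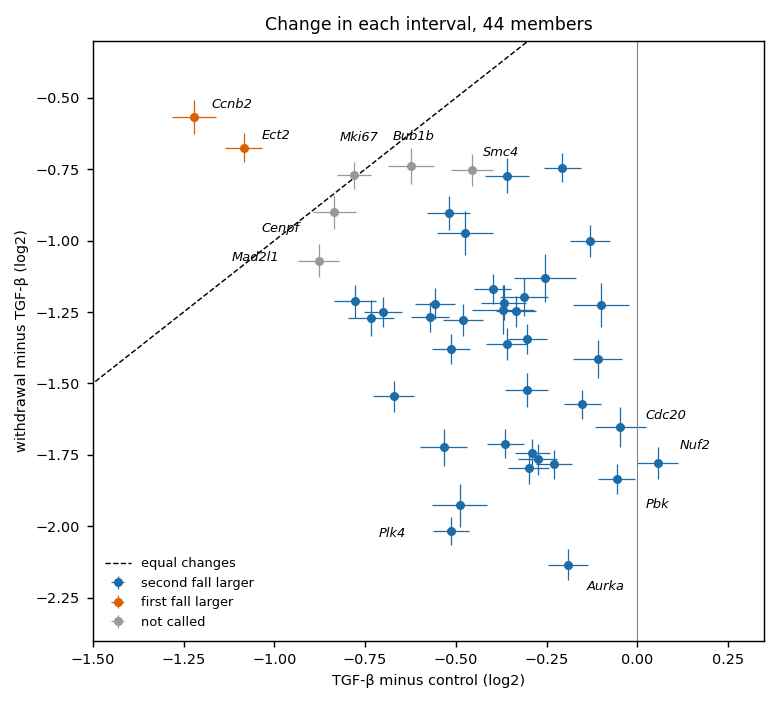
Log2 difference of each member between control and TGF-β (horizontal axis) and between TGF-β and withdrawal (vertical axis), with bars of 1 SE and a dashed line where both are equal. The 37 members below the line in blue fell more in the second interval, Ccnb2 and Ect2 above it in orange fell more in the first, and 5 in grey did not pass.

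The members had 99 probe sets, which were also fitted with all 34945 probe sets of 1 symbol, a fit added after the data were seen. Under TGF-β, 50 of the 99 were called lower and 1 higher (14.0% of all probe sets were called lower, and 4640 of the 34945 higher). From TGF-β to withdrawal 87 were called lower and 0 higher (20.6% of all lower, and 6637 higher). From control to withdrawal the counts were 89 and 0 (21.4% of all lower, and 6781 higher). Under TGF-β the 4 dimmer probe sets of Bub3 were at -0.02 to 0.15 and did not pass.

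Other genes of the same machinery were taken from lists that hold no member. Of 106 other mitosis genes, 53 were called lower and 5 higher under TGF-β, with a median of -0.23. After withdrawal, 87 were called lower and 8 higher than control, with a median of -1.06. Beside these and the lists below, the shares of all genes called lower and higher were 17.5% and 15.0% under TGF-β. They were 23.6% and 21.7% from control to withdrawal, and 22.1% and 21.8% from TGF-β to withdrawal. Of 30 other kinetochore and centromere genes, 20 fell and 1 rose under TGF-β, and 28 fell and 0 rose after withdrawal against control. Zwilch, of the complex that recruits dynein to kinetochores, was at -1.06 and then -2.11, and Cenpk, of the inner kinetochore, at -0.89 and -2.06. Oip5, which helps load Cenpa at centromeres, was at -0.73 and -1.59, and Dsn1, of the outer kinetochore, at -0.71 and -0.91. Of 12 mitotic kinesin genes, 6 and then 10 were lower and 0 higher, with Kif23, the partner of Racgap1 in the central spindle, at -0.99 and -1.98. Kif20b, Kif22 and Kif11 were at -0.47, -0.36 and -0.30 and then at -1.70, -1.44 and -1.39.

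Cohesin, condensin II and the anaphase-promoting complex also work outside mitosis. Of 14 cohesin and condensin II genes, 8 fell and 0 rose under TGF-β, and 10 fell and 3 rose after withdrawal against control. From TGF-β to withdrawal 5 fell, 2 rose and 7 did not pass, with a median of -0.05 beside -1.26 for the members. The cohesin gene Smc3 was at -0.59 and then -0.94 from control, its regulator gene Pds5b at -0.48 and -0.36, and the condensin II genes Ncaph2 and Ncapd3 at -0.55 and -0.50 and then -0.56 and -1.42. Of 15 genes for subunits and regulators of the anaphase-promoting complex, 3 fell and 2 rose under TGF-β (17.5% and 15.0% of all genes). After withdrawal, 9 of the genes for this complex fell and 3 rose against control (23.6% and 21.7% of all genes). Its inhibitor gene Fbxo5, for Emi1, was at -0.32 and then -2.04, while the subunit gene Cdc16 was at 0.35 under TGF-β and did not pass after withdrawal (0.11, limma adjusted p = 0.132). The subunit genes Anapc1 and Anapc10 were at -0.37 and 0.33 and then at -0.45 and -0.17. Of 19 other spindle and cytokinesis genes, 11 fell and 1 rose under TGF-β, and 16 fell and 1 rose after withdrawal, with Haus1, of the augmin complex, at -0.84 and -1.48. The spindle genes Spag5, Aspm and Nusap1 were at -0.66, -0.66 and -0.64 and then at -2.08, -1.46 and -1.72.

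Of 16 other regulators of mitotic entry, 5 fell and 1 rose under TGF-β, and 14 fell and 1 rose after withdrawal. They included Mybl2, which encodes B-Myb, at -0.79 and -2.23, and the MuvB genes Lin9 and Lin54 at -0.89 and -0.76 and then -1.95 and -1.45. Bora, whose protein helps Aurka switch on Plk1, rose by 0.55 under TGF-β and was at -0.83 from control after withdrawal. Of 29 DNA replication genes, 20 fell and 1 rose under TGF-β and 29 fell after withdrawal, with a median of -1.31 beside -1.75 for the members. The clamp loader genes Rfc5 and Rfc4 were at -0.86 and -0.77 and then -1.86 and -1.34, the helicase subunit gene Gins1 at -0.69 and -1.96, and the histone chaperone gene Chaf1b at -0.67 and -1.16. Of 14 CDK inhibitor and G1 cyclin genes, 5 rose and 4 fell under TGF-β and 8 rose and 4 fell after withdrawal. The cyclin gene Ccnd2 rose by 0.89 under TGF-β (limma adjusted p = 0.000116) and was at 0.25 after withdrawal (limma adjusted p = 0.0128). The inhibitor gene Cdkn2a was at 0.52 and then 2.06, the related cyclin gene Ccnd1 at -0.52 and -0.75, and the pocket protein gene Rbl1 at -0.57 and -1.28.

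**Figure D4:**
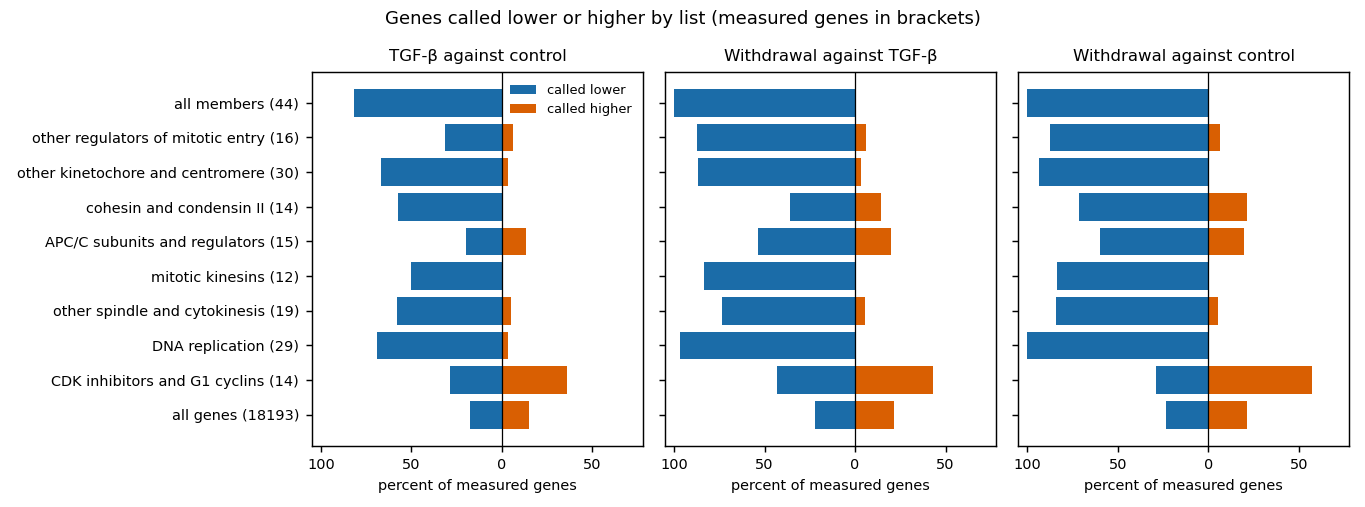
Percent of measured genes called lower (blue, to the left) or higher (orange, to the right) in each comparison, for the 44 members, 8 other lists and all 18193 genes, with the number measured in brackets. In withdrawal against control, 44 of 44 members and 29 of 29 replication genes were called lower, and 23.6% of all genes were.

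The medians of the 6 arrays lay between 5.77 and 5.79, and the lowest Pearson's r within a group was 0.998, across genes, which are not independent replicates. Scaling to poly-A spikes moved the median difference of all genes to -0.30, 0.12 and -0.18 in the 3 comparisons, and scaling to hybridization spikes to -0.17, -0.25 and -0.42. Over all genes, the calls lower and higher under TGF-β went from 3175 and 2726 to 5334 and 818 with poly-A scaling and to 4408 and 1319 with hybridization spike scaling. From control to withdrawal they went from 4292 and 3943 to 3730 and 1967 and to 12634 and 1655, and from TGF-β to withdrawal from 4023 and 3960 to 1500 and 3506 and to 7772 and 2146. Changes here are relative to the arrays' common level. With those scalings the members' medians were -0.66, -1.11 and -1.89, and -0.53, -1.48 and -2.12. The log2 gap between the 3′ and 5′ control probe sets of β-actin was 0.34 to 0.36 on the withdrawal arrays and 0.14 to 0.18 on the other 4, and that of Gapdh was -0.18 to -0.14 on all 6. The part of this gap in the results was not tested.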

How the data were processed

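RNA was labelled for 3′ expression arrays, per the labels' protocols. Each deposited value is a probe set's log2 intensity after RMA, which the submitters' processing notes name. RMA brings all arrays to a common level, so a shift in every gene at once is not seen. The sources used here name no software version. No detection calls were used, so dim values are not separated from background.

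Of 45101 probe sets, 64 controls were left out 34945 had 1 gene symbol, 932 several and 9160 none. Each of 18193 genes was read from the probe set whose mean over the 6 arrays was highest; 15 members had 1 probe set. All arrays were fitted with limma 3.58.1 in R 4.3.3 (lmFit, eBayes, no covariates; 3 residual and 2.86 prior degrees of freedom), two-sided, adjusted over all genes. The script was tested on simulated data. Shares and counts used pandas 2.3.3 and figures matplotlib 3.10.9. The members, lists and tests were chosen with earlier results of these data known. The text names all 44 measured members, the called genes of other lists with the largest differences under TGF-β (up to 4 a list), and Acta2, Tagln and Cdh1 as checks of the labels; other marker genes were named after their values were seen. Promoter windows were credited to RefSeq (GRCm38.p6). The alternatives were the replicate block, the spread, the filter, the probe sets, normalization, scaling and samples.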

Additional observations from a re-analysis of the deposited data

How the results depend on the processing

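The counts of members called lower after withdrawal were 44 or 43 against TGF-β and 44 against control in all settings that measured 44 members; the 1 exception was Ccnb2 against TGF-β with poly-A scaling (-0.42, limma adjusted p = 0.0563). Without probe sets whose names end in _x, _s or _a, 34 members were measured, and 33 and 34 of them were called lower in those comparisons, 23 under TGF-β, and 23 had a larger second fall. Under TGF-β the count was 33 to 39 in the other settings with all 6 arrays, and 29 to 35 without 1 array. The larger second fall was called for 15 members with poly-A scaling, and for 32 to 37 without 1 array. For the larger second fall, the percent of all genes called in that direction was counted in the main fit alone (17.8%). With the replicate number as a block, 36 members were called lower under TGF-β, 44 in the other comparisons, and 34 had a larger second fall. The labels do not say whether same-numbered arrays were matched. Their deviations from the group means correlated at -0.0162 to 0.00674, which cannot decide it with 2 arrays a group. Of the 36 members called under TGF-β, 26 kept the call in every setting that measured them, 10 lost it in at least 1 and 8 of these without 1 array (Cdk1, Aurka, Tpx2, Hmmr, Bub3, Cenpa, Cdca8 and Ncapd2). Of the 8 not called, Cdc25c, Pttg1 and Prc1 passed in some settings. The direction under TGF-β turned for Bub3 with the mean of probe sets (0.017) and without suffixed probe sets (0.087), for Top2a without suffixed probe sets (0.080), and for Nuf2 with poly-A (-0.23) and hybridization spike scaling (-0.10). The cause was not tested. No member was called higher in any setting. With 2 arrays a group, the smallest differences called were 0.161, 0.151 and 0.149 in the 3 comparisons.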

Other observations

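Members with several probe sets did not always read the same under TGF-β, in the fit over all probe sets. For Tpx2, the second brightest probe set was called higher, at 0.27, where the brightest was at -0.30 (limma adjusted p = 0.0201 and 0.0160). After withdrawal both were below control, at -1.04 and -1.83. The second brightest probe set of Pttg1 was at -0.69 under TGF-β (limma adjusted p = 0.000658) beside -0.13 for the brightest. For Racgap1 and Ncapg the second brightest probe sets were at -0.06 and -0.09 and did not pass, beside -0.47 and -0.48 for the brightest. The 4 brighter probe sets of Smc2 lay between -0.11 and 0.03 under TGF-β and between -2.07 and -1.53 after withdrawal, and its dimmest was at -0.35 and -0.60. These genes were chosen after their values were seen.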
